A study of Mus musculus with 2 samples.

Results

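The 10 genes described here encode receptors through which hormones, a transmitter and fatty acids set the secretion of pancreatic islets and acinar cells: Glp1r, Gipr, Gcgr, Ffar1, Prlr, Ghr, Sstr2, Sstr3, Cckar and Chrm3. They were chosen by name, with earlier results of these data known. Every gene probe whose RefSeq accession or symbol, current or older, led to one of them was taken. This gave 15 probes of 41174 on the array, for 10 of 16836 genes that could be named. All 10 genes had at least 1 probe, 3 of them (Gipr, Prlr and Ghr) had several, and all 15 probes were well above background in all 4 channels.

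Expression was measured in whole pancreas at postnatal day 3 in mice homozygous for a mutant Glis3 allele (Glis3zf/zf in the labels, also called Glis3KO there) and in wild-type (WT) mice. Each genotype was a single pool of RNA from 2 pups. The pools shared each of 2 Agilent arrays of the 2-colour kind, with the dyes exchanged on the second. Each genotype is thus 1 sample, the 2 arrays repeat the same RNA, and no value carries an error across animals or a test. The sources used here do not give the strain or sex of the pups.

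In background, GLP-1, GIP and glucagon receptors are related G protein-coupled receptors that raise cyclic AMP, and in beta cells this increases insulin release when glucose is high. Ffar1, the free fatty acid receptor, and the acinar receptors Cckar, for cholecystokinin, and Chrm3, the muscarinic acetylcholine receptor, act through phospholipase C and calcium, while somatostatin receptors lower cyclic AMP and restrain secretion. The prolactin and growth hormone receptors belong to the cytokine receptor class, signal through Jak2 and Stat5, and are linked to beta cell growth.

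By the probe read for each gene, no receptor differed between the pools by more than a small amount. A dimmer probe of Gipr, described below, was 1.35-fold lower in the mutant. Values are log2 ratios with the mutant on top, so a positive one is higher in the mutant. Over the 10 genes, each read from its brightest probe, the mean ratio of the 2 arrays ran from -0.14 (Sstr2, 0.907 of the wild-type level) to 0.12 (Ghr, 1.09-fold). The largest ratio on a single array was 0.22 in size, for Sstr2 with the mutant in Cy5. A gene was called by size alone. The 2-fold rule asked for a 2-fold mean change and for 1.5-fold, the same way, on both arrays, and a smaller rule asked for 0.32 log2, the same way, on both. Of the 10 receptors, 0 passed the 2-fold rule, where 0.381% of 16535 detected genes passed, and 0 passed the smaller rule, where 2.88% passed. With backgrounds this low, a count of 0 among 10 genes is near what the whole array shows, and it sets the receptors apart from nothing. The mean ratios of 77.6% of detected genes were no larger in size than the largest among the receptors.

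The arrays set how small a difference can be read. The technical SD of a mean ratio, from the difference between the arrays over genes not past the 2-fold rule, lay between 0.07 and 0.10 in the intensity classes of the receptors. By that yardstick 2 of the 10 receptors lay within 1 SD of 0, the other 8 lay between 1 SD and double it, and 0 lay beyond. Differences between pups were not measured and would come on top. In whole pancreas, fewer cells of a type and less RNA per cell cannot be told apart.

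**Figure D1:**
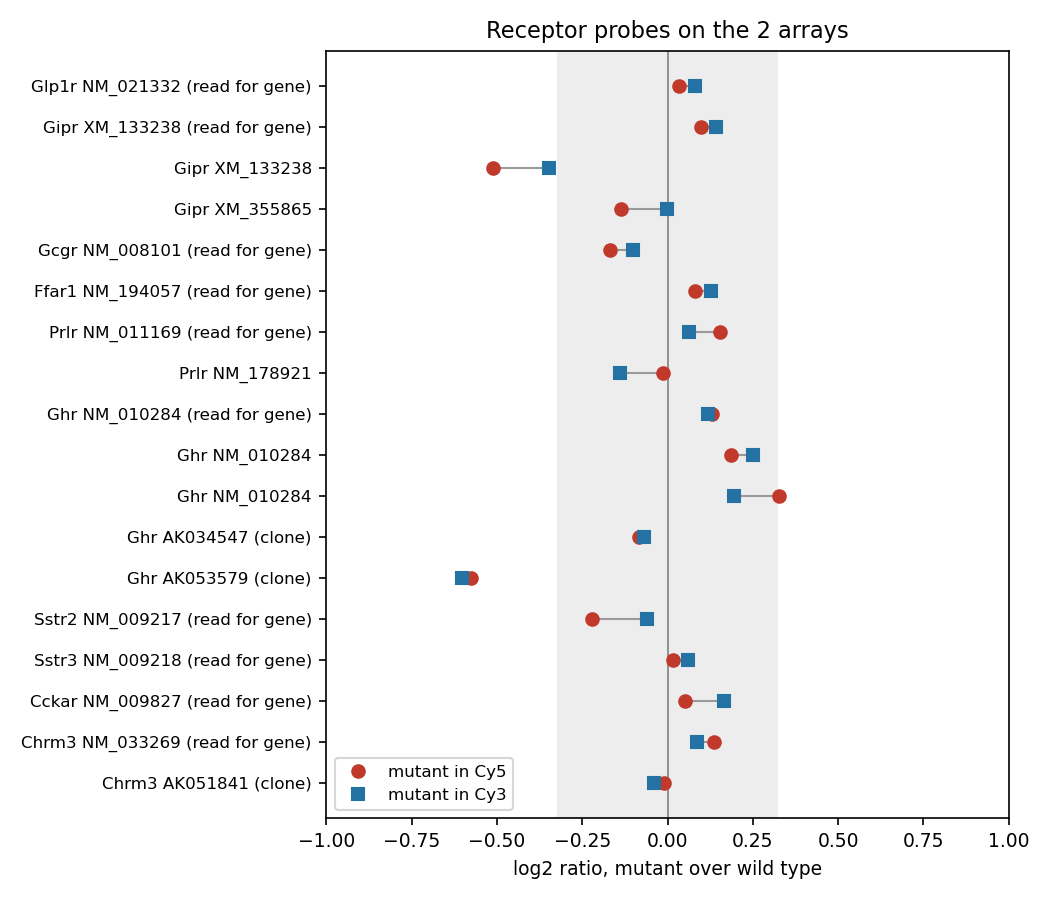
Log2 ratio of mutant over wild type (x axis) for each of the 15 receptor probes and 3 clone probes outside the naming rule (rows), as a circle where the mutant carried Cy5 and a square where it carried Cy3; the grey band spans ratios under 0.32 in size. Every probe read for a gene lies inside the band, whereas 1 further probe of Gipr and 1 clone probe of Ghr lie below it on both arrays.

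The incretin and glucagon receptors, which couple to cyclic AMP, lay close to 0 by the probes read for them. Glp1r, the receptor of glucagon-like peptide 1 (NM_021332), was read by a probe that the files place on chromosome 17 from 28745358 to 28749027. That span, 3670 bp, is longer than a probe, so its listed ends lie on either side of a gap. Its raw signals were 381 and 350 in the mutant, with Cy5 and Cy3, against 459 and 346 in the wild type, with Cy3 and Cy5. The raw signals overlapped: the wild type held both the highest and the lowest of the 4. Raw signals, here and below, still hold differences between dyes and arrays. The wild type in Cy3 was the brightest channel over all gene spots, with a median of 265 against 207 to 210 in the others. After normalisation its ratio was 0.03 on the array where the mutant carried Cy5 and 0.08 on the other, the order kept below, a mean of 0.06 or 1.04-fold.

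Gcgr, the glucagon receptor (NM_008101; chromosome 11 from 120360022 to 120360082), had raw signals of 611 and 569 in the mutant against 837 and 659 in the wild type. Both mutant signals were below both wild-type signals, which is before the difference between dyes is removed. Its ratios were -0.17 and -0.10, a mean of -0.13, and so it was 1 of the 2 receptors below 0 on both arrays.

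Gipr, the receptor of the incretin GIP, was listed in the array design under predicted transcripts, and its 3 probes did not give 1 answer. The brightest (XM_133238; chromosome 7 from 16028723 to 16028781) had raw signals of 214 and 305 in the mutant against 254 and 284 in the wild type, with ratios of 0.10 and 0.14. The second probe to the same transcript (chromosome 7 from 16025899 to 16025958) had raw signals of 111 and 118 in the mutant against 204 and 137 in the wild type. On it the wild type was brighter in either dye, and the ratios were -0.51 and -0.35, a mean of -0.43 or 1.35-fold lower in the mutant. It was the 1 of 15 receptor probes past the smaller rule, where 2.1% of 38841 detected probes passed. The third probe (XM_355865; chromosome 7 from 16031725 to 16032322) had ratios of -0.14 and -0.00. The mean ratios of the 3 probes spanned 0.55 log2, and among 871 genes with 3 detected probes 9 (1.03%) spanned as much or more, with a median of 0.14. The lower probe is dim, with signals of between 1.59 and 2.68 times the 95th percentile of negative control spots, and the scanner software's own ratios for it were -0.84 and -0.69. The call for Gipr as a gene therefore depends on which probe is read.

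**Figure D2:**
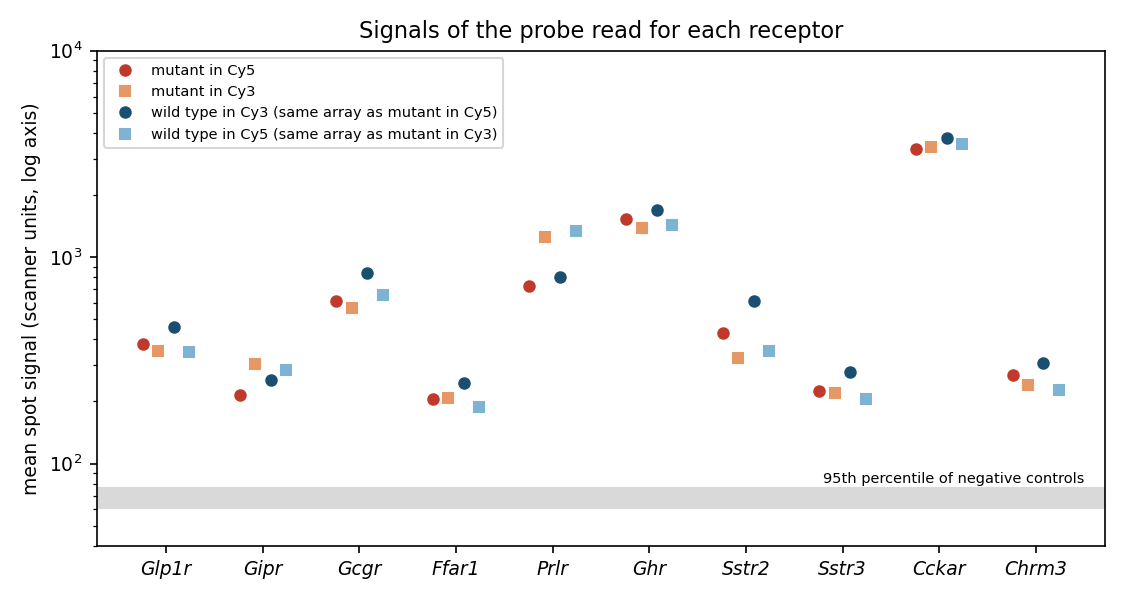
Mean spot signal in scanner units (log axis) of the probe read for each receptor, in the mutant with Cy5 and Cy3 and then in the wild type with Cy3 and Cy5; the grey band marks the 95th percentile of negative control spots, between 60.8 and 76.2. All 4 signals of every receptor lie above the band; Prlr and Sstr2 spread the most, Prlr brighter in both pools where the mutant carried Cy3 and Sstr2 where it carried Cy5, and heights of different probes are not comparable.

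Ffar1, the fatty acid receptor of beta cells (NM_194057, listed under its older name Gpr40; chromosome 7 from 26272101 to 26272160), had raw signals of 205 and 207 in the mutant against 247 and 187 in the wild type. The wild type again held both the highest and the lowest signal. The ratios were 0.08 and 0.13, a mean of 0.10 or 1.07-fold.

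The 2 somatostatin receptors, through which delta cells restrain their neighbours, lay on opposite sides of 0. Sstr2 (NM_009217; chromosome 11 from 113446756 to 113446815) had raw signals of 429 and 323 in the mutant against 612 and 352 in the wild type. Its ratios were -0.22 and -0.06, a mean of -0.14. Both pools were brighter on the array where the mutant carried Cy5, and the difference in ratio between the arrays was the largest among the receptors, at 0.08 on each side of the mean. Sstr3 (NM_009218; chromosome 15 from 78591576 to 78591635) had raw signals of 225 and 219 in the mutant against 279 and 205 in the wild type, with ratios of 0.02 and 0.06, the mean nearest 0 of the 10 genes.

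Glis proteins bind DNA motifs rich in G, and the core TGGGGGGT was searched on both strands in RefSeq promoters of assembly GRCm38.p6, from 250 bp before to 50 bp after each start. Of the 10 genes, 8 matched the promoter table, with 12 promoters, and 1 promoter of Sstr3 held the core, where 1.53% of 32851 promoters did. Gipr and Cckar were not among the matches. The sequence is shown because it is the 1 match among the receptors, at chr15:78544296-78544595 on the minus strand, 5′ to 3′, with the core in capitals in its forward form, 16 bp before the start, and in its reverse complement ACCCCCCA, 58 bp before the start.

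Sstr3 promoter: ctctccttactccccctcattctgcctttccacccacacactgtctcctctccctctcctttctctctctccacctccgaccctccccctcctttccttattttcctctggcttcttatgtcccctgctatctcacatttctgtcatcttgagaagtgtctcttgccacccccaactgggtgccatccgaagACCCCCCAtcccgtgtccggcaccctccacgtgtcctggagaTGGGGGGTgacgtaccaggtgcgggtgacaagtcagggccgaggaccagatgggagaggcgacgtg

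A match is a description of letters, not a bound site. The other receptor promoters in the table did not hold these letters in the window.

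The cytokine-type receptors were slightly above 0 by the probes read for them. Prlr, the prolactin receptor (NM_011169; chromosome 15 from 10140001 to 10140060), had raw signals of 727 and 1253 in the mutant against 800 and 1343 in the wild type. Both pools were brighter on the array with the mutant in Cy3, and within each array the ratios were 0.15 and 0.06, a mean of 0.11 or 1.08-fold. A second, dim probe reached through the older symbol AI987712 (NM_178921; chromosome 15 from 10147381 to 10147440) had ratios of -0.01 and -0.14.

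Ghr, the growth hormone receptor, had 3 probes to its transcript NM_010284, and all 3 were above 0 on both arrays. The brightest (chromosome 15 from 3098842 to 3098901) had raw signals of 1538 and 1380 in the mutant against 1694 and 1434 in the wild type, with ratios of 0.13 and 0.12. That was the closest match between the arrays among the 10 genes. The next (chromosome 15 from 3108723 to 3108782) had 0.19 and 0.25, and the third, whose listed span is 7453 bp (chromosome 15 from 3114244 to 3121696), had 0.33 and 0.20. None passed the smaller rule, and their mean ratios spanned 0.14 log2.

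A clone probe described in the files as a growth hormone receptor product, but carrying no RefSeq accession or symbol and so outside the naming rule, behaved differently. It belongs to AK053579, a cDNA from newborn eyeball, and lies on chromosome 15 from 3126055 to 3126114. Its raw signals were 554 and 480 in the mutant against 1007 and 781 in the wild type. The 2 mutant signals were below both wild-type signals, and the ratios were -0.58 and -0.60, a mean of -0.59, past the smaller rule. The other such clone probe of Ghr (AK034547; chromosome 15 from 3106359 to 3106418) had -0.08 and -0.07. These probes were picked out after their values were seen. Along the gene, as the files list positions, the AK053579 probe is the farthest upstream, 27.2 kb from the probe nearest the 3′ end, and the 3 RefSeq probes lie from 0 to 19.1 kb. Which exons or introns the probes lie in was not analysed here, because the sources used here do not name the genome build of the coordinates.

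**Figure D3:**
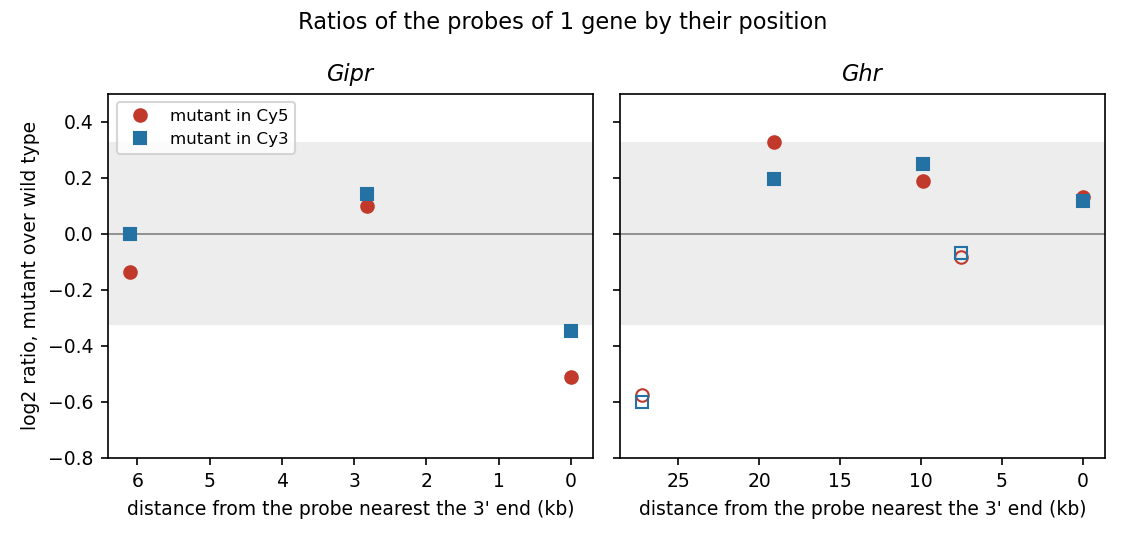
Log2 ratio of mutant over wild type (y axis) for the probes of Gipr (left) and Ghr (right) against their distance in kb from the probe nearest the 3′ end, as the files list positions, with circles for the mutant in Cy5 and squares for the mutant in Cy3; filled points follow the naming rule, open points are clone probes outside it, and the grey band spans ratios under 0.32 in size. The lower Gipr probe is the one nearest the 3′ end, and the lower Ghr clone probe is the one farthest from it.

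The receptors of acinar secretion lay close to 0 as well. Cckar, the cholecystokinin receptor that drives enzyme release in mouse acinar cells (NM_009827; chromosome 5 from 52508946 to 52509005), had raw signals of 3334 and 3400 in the mutant against 3799 and 3541 in the wild type. Both mutant signals were below both wild-type signals before normalisation. After it, the ratios of Cckar were above 0, at 0.05 and 0.17, a mean of 0.11 or 1.08-fold. Chrm3, the muscarinic receptor through which nerves act on acinar and beta cells (NM_033269; chromosome 13 from 9861503 to 9861562), had raw signals of 270 and 240 in the mutant against 306 and 226 in the wild type. Its ratios were 0.14 and 0.09, a mean of 0.11, and a clone probe outside the naming rule (AK051841; chromosome 13 from 10104698 to 10104757) had -0.01 and -0.04.

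As a list, the 10 receptors had a median ratio of 0.11, against 0.00 for all detected genes. On both arrays 8 receptors were above 0 and 2, Gcgr and Sstr2, were below, where 32.4% of detected genes were above and 30.5% below on both. With median centring in place of loess 4 receptors were above 0 on both arrays, where 24.4% of all genes were. The list median was then 0.03, against -0.01 for all genes. Prlr, Ghr and Cckar fell just below 0 where the mutant carried Cy3, and Sstr3 where it carried Cy5. With the median over all probes of a gene, 6 receptors were above 0 on both arrays and 3 below. The side of 0 thus rests in part on the normalisation and on the probe read, and the sizes stay near the technical SD.

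Among the hormones and other ligands of these receptors, 3 of 11 measured genes (Sst, Gcg and Cck) passed a rule of size and 8 passed neither, with a list median of -0.04. For acetylcholine, which no gene encodes, the list holds the gene of the enzyme that makes it. By the 2-fold rule 2 passed, where 0.381% of all detected genes did, and both were lower in the mutant pool. The smaller rule was passed by 2.88% of all detected genes. Sst, the somatostatin gene, had raw signals of 2487 and 1784 in the mutant against 10321 and 9339 in the wild type, with ratios of -1.84 and -2.16 (4.01-fold lower), while the ratios of its receptors Sstr2 and Sstr3 were -0.14 and 0.04. Gcg, which encodes glucagon and GLP-1, had 16792 and 13675 in the mutant against 39661 and 40042 in the wild type, a mean ratio of -1.21, while Gcgr and Glp1r had -0.13 and 0.06. For both ligands the raw signals of the mutant lay below both of the wild type. These are repeat readings of the same RNA, and the share of all genes with such an order was not counted. Cckar had the same order of raw signals, with ratios above 0. Cck, the cholecystokinin gene, was the 1 ligand higher by the smaller rule, with raw signals of 433 and 391 in the mutant against 308 and 239 in the wild type. Its ratios were 0.81 and 0.78, or 1.73-fold, beside 0.11 for Cckar.

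**Figure D4:**
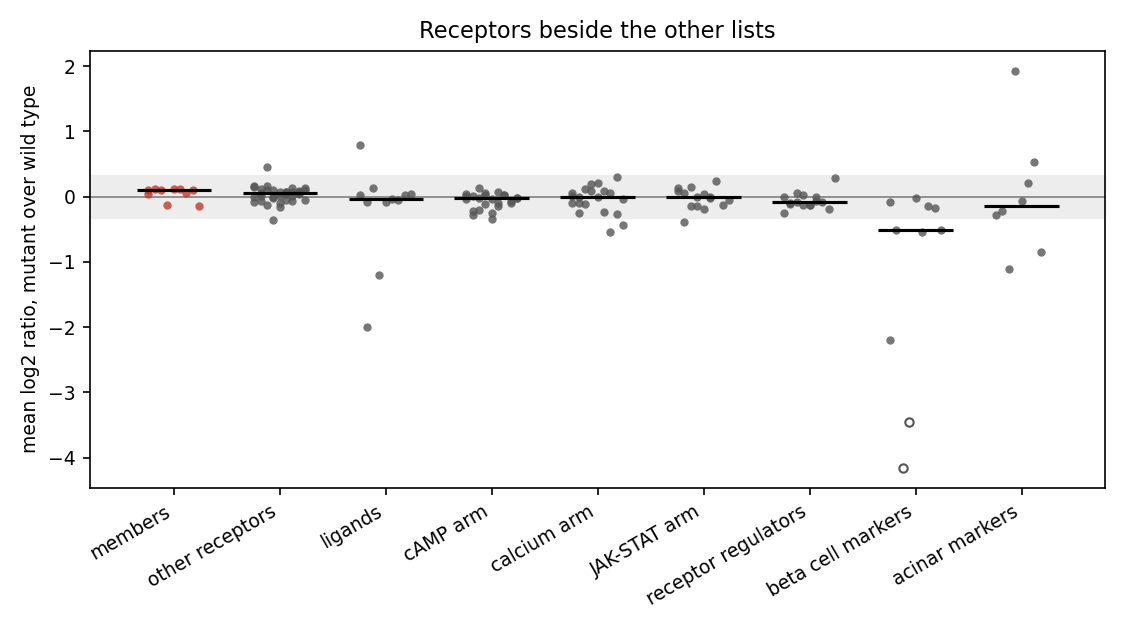
Mean log2 ratio of mutant over wild type (y axis) of each measured gene in the receptor list (red) and in 8 other lists (grey, x axis), with a black bar at each list's median, open circles for genes with a saturated spot, whose ratio is not exact, and a grey band for ratios under 0.32 in size. The 10 receptors lie between -0.14 and 0.12, while ligands, beta cell markers and acinar markers spread beyond the band.

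Of 40 other listed receptors of islet and acinar secretion, 35 were measured, with a median of 0.05. By the 2-fold rule 0 passed and by the smaller rule 1, a share near the 2.88% of all detected genes. It was Ptger3, a prostaglandin E receptor, with ratios of 0.50 and 0.40 and a mean of 0.31 by its other probe. Ffar2, a receptor of short fatty acids that was picked out after its values were seen, fell just short with -0.39 and -0.32. Sstr5 had no probe named here and was not analysed.

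Downstream of the receptors, 3 genes passed the smaller rule, which 2.88% of all detected genes passed. In the cyclic AMP arm it was 1 of 24 measured genes: Adcy9, an adenylyl cyclase, with ratios of -0.36 and -0.33. Without background correction 0 of the 24 passed. In the calcium arm, 2 of 20 passed and both were lower in the mutant. Itpr1, an inositol trisphosphate receptor that releases stored calcium, had -0.64 and -0.45 (a mean of -0.18 by its other probe), and Itpr3, the form abundant in acinar cells, had -0.43 and -0.45. The raw signals of Itpr3 were 2039 and 1778 in the mutant against 3272 and 2791 in the wild type. No gene passed in the Jak-Stat arm (15 measured), where Cish, a feedback inhibitor induced by Stat5, had -0.51 and -0.26 and Men1, the menin gene, 0.22 and 0.25, nor among 15 regulators of receptors, where Ramp1 and Ramp2, accessory proteins of receptors, had 0.28 and -0.25 as means. None of the genes in these 4 lists passed the 2-fold rule. The medians of the 4 lists lay between -0.09 and -0.01.

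The receptors' ratios stood beside clear differences in cell type markers. For the counts that follow, 0.381% of all detected genes passed the 2-fold rule and 2.88% the smaller one. The counts use the probe read for each gene, and other probes of some markers differed. Of the markers called, Hhex, Cdh5, Elavl4 and Myh8 had mean ratios of -0.03, 0.07, -0.15 and 0.06 by their other probes. Slc2a2, not called, had -0.76 by its other probe, while Flt1, Ghrl and Tnnt3 passed by both of theirs. Of 10 beta cell markers, 3 were lower by the 2-fold rule, 6 by the smaller one, and the median was -0.51; Ins1, an insulin gene, was 14.6-fold lower in the mutant on the 1 array with its spot unsaturated, and G6pc2, the islet glucose-6-phosphatase, had -2.16 and -2.22. The summed raw signal of the 8 beta cell markers without a saturated spot was 22003 and 19497 in the mutant against 38603 and 32349 in the wild type, with no raw signal of 0. Most of these sums is Iapp alone, with 19244 and 17044 in the mutant against 32115 and 26954 in the wild type. All 3 markers of PP and epsilon islet cells were lower by the 2-fold rule, with a median of -2.12. Of 2 delta cell markers 1 was lower by that rule and 2 by the smaller one, and of 6 alpha cell markers 1 and 2. Sst and Gcg, given above, are among these. Of 8 duct markers 1 was higher by the smaller rule, with a median of 0.22, and of 10 neuron and Schwann cell markers 2 were lower by it. Of the skeletal muscle markers, a tissue outside the pancreas, 8 of 9 were higher by the 2-fold rule. Their sums were 23380 and 21537 in the mutant against 3928 and 3722 in the wild type over all 9, with no raw signal of 0. Of 18 acinar markers on the array, 10 were saturated in all 4 channels, and the other 8, with no raw signal of 0, had a median ratio of -0.14. By the 2-fold rule 1 of them was higher (Gp2) and 1 lower (Ctrl, with a mean ratio of -1.11). By the smaller rule it was 2 each way, adding Ptf1a (0.52) and Rbpjl (-0.85). Their sums were 69327 and 59689 in the mutant against 76532 and 72471 in the wild type. The largest part of them is Cela1, with 35149 and 31448 in the mutant against 44213 and 43167 in the wild type. Those sums also hold Gp2, a zymogen granule protein gene, with 19916 and 16459 in the mutant against 5773 and 5216 in the wild type (3.81-fold higher). Of 7 endothelial markers 3 were lower by the smaller rule, with sums of 4215 and 3959 in the mutant against 6843 and 5490 in the wild type. Of 7 leukocyte markers 2 were higher by that rule, with sums of 27763 and 23079 in the mutant against 18867 and 19441 in the wild type. Smooth muscle, adipocyte and liver markers gave 0 calls by either rule, from 7, 6 and 4 genes, which is near the share over all detected genes. The part of these differences in the receptors' ratios was not tested. Glis3 itself was read by 1 probe with ratios of -0.02 and 0.01. The sources used here do not say whether that probe lies in the part that was mutated, so it does not check the labels.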

How the data were processed

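The authors deposited, per the file headers, scanner files with the mean spot intensity and median local background intensity of each dye, not normalised, and the software's log10 ratio (Cy5 on top), made after background subtraction, spatial detrending and dye normalisation. Feature Extraction was version 7.5 and Rosetta Resolver 6.0 per the labels, and 8.5.1.1 per the file headers. The deposited series matrix holds log2 ratios. Set against the software's ratio with the mutant on top, they lay within 0.002 for 99.99% and 99.98% of probes, with column medians of 0.

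Mean signals were corrected with normexp (offset 50, which shrinks ratios of dim spots) then by within-array loess in which control spots had weight 0 (limma 3.58.1, R 4.3.3; then Python 3.11.15, numpy 2.4.6, pandas 2.3.3, matplotlib 3.10.9). The normexp and loess steps were also run on simulated arrays, with changes beyond 2-fold planted in brighter spots. That does not bear on changes as small as those of the receptors, or on the smaller rule. Outlier-flagged spots, 15 and 53, were left out, spots of a probe were averaged, and the ratios, with the mutant on top, were averaged over the arrays. The brightest probe with no saturated spot stood for its gene. Where every probe of a gene had a saturated spot, as for Ins1 and Ins2, the brightest of them was used. Detected means well above background in 1 genotype on both arrays, and genes saturated in all channels were left out. Probes were named through RefSeq, 22072 by accession, 135 by another accession, 663 by symbol and 663 by older symbol, leaving 17641 unnamed.

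Named genes were the 10 receptors and, of each pathway list, those past a rule of size (at most 6) or else the 2 with the largest ratios. Ffar2, Atp2a2, the clone probes and the marker genes Ins1, G6pc2, Iapp, Gp2, Cela1, Ctrl, Ptf1a and Rbpjl were named outside that rule, after their values were seen. So were the markers Hhex, Cdh5, Elavl4, Myh8, Slc2a2, Flt1, Ghrl and Tnnt3. The members and lists were chosen with earlier results of these data known. The median raw signal was 207 to 265 per channel, the number of arrays limits the precision, and 11 alternatives were tried.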

Additional observations from a re-analysis of the deposited data

How the results depend on the processing

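Under all 11 alternatives, 0 of the 10 receptors passed either rule of size. Several of these could not change that count. The other filters on dim probes and the keeping of outlier-flagged spots left all 10 values as they were, and the series matrix repeats the software's ratios. All but the median over probes read the same probe of each gene, so the lower Gipr probe could not be called. Over all genes the 2-fold rule called between 58 and 94 genes, against 63. The smaller rule called between 411 and 1264, against 477, the last with the mutant in Cy5 alone, where 1 array decides. With the scanner software's ratios these counts were 94 and 737, and with an offset of 0 they were 91 and 664; the cause was not tested. The median ratio of the receptors lay between 0.03 (median centring) and 0.12 (the authors' series matrix), and was 0.07 or 0.08 from the arrays taken singly (mutant in Cy5, then Cy3). Among single receptors, the median over probes gave Gipr -0.07 and Prlr 0.02, and Sstr2 was -0.22 or -0.06 from 1 array. In the pathway lists the software's ratios called 2 genes of the other receptors, 2 of the cyclic AMP arm, 1 of the Jak-Stat arm and 1 regulator by the smaller rule, against 1, 1, 0 and 0. From the array whose mutant RNA carried Cy5, taken singly, 4 genes each of the cyclic AMP and calcium arms passed and 2 of the Jak-Stat arm. The bound planned for receptors below background was not run, because none was. No paired analysis was possible because each genotype is 1 pool, measured with both dyes. Ratios of spots near the negative controls are the least certain, and differences between pups were not measured.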

Other observations

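Prlr was much brighter on the array with the mutant in Cy3 than on the other, in both pools: 1253 against 727 in the mutant and 1343 against 800 in the wild type, so that its ratio within an array was little touched. Among 5196 genes with several detected probes, 169 (3.25%) had some but not all probes past the smaller rule, as Gipr did. Atp2a2, the calcium pump that refills the stores and a member of the calcium arm, was another: its brighter probe had a mean ratio of -0.10 and its other probe -0.65, with -0.59 and -0.71 on the 2 arrays. It was picked out after its values were seen.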
